A study of Mus musculus with 27 samples.

Results

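The genes described here are 10 named members of the Notch pathway, matched by symbol among the 24293 gene entries of each RNA table. They are the receptors Notch1, Notch2 and Notch3, the ligands Dll1, Dll3 and Jag1, the transcriptional effectors Hes1, Hes5 and Hey1, and Rbpj, the DNA-binding partner of activated receptors. RNA was sequenced from 15 libraries in 5 groups of 3. Control microglia were taken at day 2 and at day 7, microglia transduced with ND1 at day 2 and at day 7, and cortical neurons were grown in culture for comparison. All came from wild-type C57BL/6 cortex of postnatal day 1. ND1 came from a lentivirus delivered with polybrene beside a second lentivirus for M2rtTA, the doxycycline-dependent activator, and doxycycline was given 1 time after the cells entered a neuronal medium (Neurobasal, B27, BDNF, GDNF and NT3). The medium of the control microglia is not stated in the labels, so the effect of ND1 cannot be told apart from those of virus, medium and doxycycline. The neurons were kept in Neurobasal with B27. DNA methylation was measured in 1 control and 1 ND1 bisulfite library, which carry no day. Nothing in the labels ties the replicates to separate cultures, and each p-value therefore measures the spread between these libraries, which may be technical.

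Notch signalling passes between touching cells. A Delta-like or Jagged ligand on 1 cell binds a Notch receptor on its neighbour, the ADAM proteases and then gamma-secretase cut the receptor, and the freed intracellular part enters the nucleus and joins RBPJ and a Mastermind coactivator on DNA. HES and HEY genes are the usual targets, and their products are repressors that hold back proneural genes. In the developing cortex, cells that turn into neurons raise the ligands under proneural factors while their neighbours keep receptor activity and remain progenitors. Microglia, the macrophages of the brain, also express Notch receptors.

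Promoter sequence was matched in RefSeq (GRCm38.p6) for 8 of the 10 members, all but Hes1 and Hey1. The 250 bases before the annotated start were searched on both strands for TGGGAA, the core of the RBPJ site, for CANNTG, the E-box bound by basic helix-loop-helix factors such as the neurogenic ones, and for CACNAG, the N-box of HES proteins. TGGGAA shares no bases with either of the others in the matches given here. It was present in 21.5% of 27025 mouse promoters, and 2.82% held at least 2 matches. CANNTG was present in 66.1%, with at least 2 matches in 31.7%, and CACNAG in 36.8%. Hes5 and Rbpj are printed because each held 2 matches to TGGGAA, and Dll1 and Dll3 as the Delta-like ligands, with 3 and 2 E-boxes, a number that many promoters hold. Hes5 lies on the plus strand at chr4:154960673-154960922 and Rbpj (the outer of its listed starts) on the plus strand at chr5:53590096-53590345. Dll1 (likewise) is on the minus strand at chr17:15376933-15377182 and Dll3 on the minus strand at chr7:28301786-28302035. Each sequence reads 5′ to 3′ and ends at the base before the start. Capitals mark TGGGAA or its complement TTCCCA in Hes5 and Rbpj, and CANNTG in Dll1 and Dll3.
Hes5: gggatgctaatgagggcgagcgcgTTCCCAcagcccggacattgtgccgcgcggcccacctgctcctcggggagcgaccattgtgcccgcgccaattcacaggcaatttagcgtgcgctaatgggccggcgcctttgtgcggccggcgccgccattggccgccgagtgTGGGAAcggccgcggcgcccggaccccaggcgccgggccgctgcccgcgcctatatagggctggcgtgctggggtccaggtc
Rbpj: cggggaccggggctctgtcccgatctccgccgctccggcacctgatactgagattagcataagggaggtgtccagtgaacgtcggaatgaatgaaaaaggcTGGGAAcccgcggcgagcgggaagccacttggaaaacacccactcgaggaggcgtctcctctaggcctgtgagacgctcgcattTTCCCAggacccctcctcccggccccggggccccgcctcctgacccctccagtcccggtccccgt
Dll1: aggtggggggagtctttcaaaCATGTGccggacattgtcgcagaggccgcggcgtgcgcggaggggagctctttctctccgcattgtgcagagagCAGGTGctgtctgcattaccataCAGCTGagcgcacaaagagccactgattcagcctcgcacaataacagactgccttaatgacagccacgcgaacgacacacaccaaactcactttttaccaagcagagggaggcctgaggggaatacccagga
Dll3: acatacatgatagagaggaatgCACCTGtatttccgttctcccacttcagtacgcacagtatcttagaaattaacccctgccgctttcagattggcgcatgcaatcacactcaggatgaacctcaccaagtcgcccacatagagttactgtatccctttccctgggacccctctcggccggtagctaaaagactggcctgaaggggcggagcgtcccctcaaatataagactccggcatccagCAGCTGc
In Hes5 the matches began 226 and 82 bases before the start and faced opposite ways, and in Rbpj they began 149 and 65 bases before it. The E-boxes of Dll1 began 229, 155 and 132 bases before the start, and those of Dll3 228 and 7 bases before it. Notch1, Notch2, Notch3, Dll1, Dll3 and Jag1 held no TGGGAA in this window. Notch1, Notch2 and Notch3 held no E-box but 1, 1 and 2 N-boxes, while Jag1 held 1 E-box, Hes5 1 and Rbpj 2. A match is a string of letters and was not tested as a binding site.

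Expression is given in FPKM, fragments scaled for transcript length and for the mapped fragments of the library, so levels can be set side by side between genes. The deposited values of a library summed to between 429013 and 739846 FPKM, and replicates correlated at r = 0.975 to 0.986 across genes. These sums followed the groups, at 700518 to 739846 in control day 7, 447561 to 461085 in ND1 day 7 and 429013 to 483402 in neurons. At day 2 they were 679238 to 694090 in control and 600293 to 618555 in ND1. Differences taken as a share of the library sum would be other than those given here, and were not tested. Neurod1, for which ND1 is a usual short name, was at 3073, 3454 and 3337 FPKM in ND1 day 2, at 36.7, 32.6 and 32.5 in ND1 day 7 and at 1.04 to 2.16 in the control libraries. The 10 neuronal markers summed to 25.7 to 29.3 FPKM in control day 2, 697 to 864 in ND1 day 2 and 4318 to 4322 in ND1 day 7, beside 3334 to 3633 in neurons. The 10 microglial markers summed to 10250 to 10620, 7107 to 7975 and 605 to 833 FPKM in the same 3 microglial groups, to 17530 to 18130 in control day 7 and to 22.9 to 25.6 in neurons. Bulk RNA was measured, so fewer cells of a kind and less RNA per cell cannot be told apart in any value that follows. Mural and fibroblast markers (10 genes) summed to 2.69 to 4.16 FPKM in control day 2, 10.8 to 12.7 in ND1 day 2, 54.8 to 65.5 in control day 7, 53.1 to 57.9 in ND1 day 7 and 78.6 to 84.7 in neurons. The 10 astrocyte markers summed to 20.2 to 21.7, 21.8 to 24.2, 77.0 to 80.9, 40.2 to 41.0 and 25.8 to 27.4 FPKM in that order. Some of these cells can carry Notch pathway transcripts, and the part of such cells in the values of the members was not tested. The 8 endothelial markers summed to 17.2 to 18.5, 18.6 to 19.9, 8.43 to 10.1, 2.17 to 2.46 and 1.13 to 1.37 FPKM in the same order. This sum was lower in ND1 day 7 and in neurons, as Notch1 and Notch2 were. It was also lower in control day 7 than in control day 2, while Notch2 was higher and Notch1 overlapped. In ND1 day 2 the sum was above control day 2, while Notch1 was below it in every library. Only 2 of these 8 genes had a mean of at least 1 FPKM in control day 2, so the sum rests on few of them. The 10 neural progenitor markers summed to 852 to 899.7, 838 to 875, 566 to 598, 272 to 285 and 177 to 206 FPKM. Of these 10, 5 had a mean of at least 1 FPKM in control day 2 and 9 in ND1 day 7, so the sum does not show how many were expressed. In ND1 against control at day 7, 4 of the 9 tested progenitor markers were called higher and 1 lower, beside 25.7% and 24.5% of all tested genes. Their median difference was 0.94, beside 0.04 over all tested genes. In neurons against control day 7, 4 were called higher and 2 lower, beside 28.1% and 25.3% of all tested genes. The part of progenitor cells in the values of the members was not tested either. Cldn5 and Emcn were listed at 0 in all control day 2 libraries, Rgs5 and Kcnj8 likewise, and Cldn5 again in control day 7.

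Microglia carried Notch2 and Notch1 as their main receptors, and both fell in ND1 cells by day 7. Notch2 was at 15.66, 15.79 and 14.99 FPKM in control day 2, 15.1, 16.5 and 17.0 in ND1 day 2, 17.8, 22.1 and 21.9 in control day 7, 2.42, 2.05 and 2.18 in ND1 day 7 and 0.280, 0.282 and 0.271 in neurons. The day 2 groups overlapped, while every ND1 day 7 library lay below every control day 7 library and above every neuron library. The mean in ND1 day 7 was 9.29-fold below control day 7. Differences were tested with limma on log2(FPKM + 1), a scale that understates changes of weakly expressed genes. A call needed both a log2 difference of at least 1 and a p under 0.05 after Benjamini-Hochberg adjustment over all tested genes. Notch2 fell by 2.74 at day 7 (SE 0.07, limma adjusted p = 7.48e-14), and its day 2 difference was 0.06 (SE 0.07, limma adjusted p = 0.489).

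Notch1, the receptor best known in neural progenitors and T cells, was at 6.55, 6.25 and 6.00 FPKM in control day 2 and at 3.74, 4.13 and 4.01 in ND1 day 2. It was at 5.79, 7.58 and 6.73 in control day 7, 0.933, 0.944 and 0.966 in ND1 day 7 and 0.290, 0.346 and 0.269 in neurons. The 2 control groups overlapped and all other neighbours in the order were separate. Unlike Notch2, Notch1 was already lower in every ND1 library at day 2, by a log2 difference of -0.55 (SE 0.07, limma adjusted p = 1.06e-05), which missed the size of 1 needed for a call. At day 7 it fell by 1.98 (SE 0.07, limma adjusted p = 1.64e-12), a mean 7.07-fold below control.

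Notch3, a receptor known from mural cells and progenitors, ran the other way at a low level. It was at 0.0582, 0.0493 and 0.0655 FPKM in control day 2, 0.258, 0.224 and 0.221 in ND1 day 2, 0.157, 0.232 and 0.323 in control day 7, 0.9987, 1.003 and 1.049 in ND1 day 7 and 0.449, 0.522 and 0.382 in neurons. ND1 day 7 stood above all other groups, and control day 7 overlapped with ND1 day 2. Only 2 libraries reached 1 FPKM, so Notch3 did not pass the filter of at least 1 FPKM in at least 3 libraries and was not among the genes tested. In a fit with no filter its day 7 difference was 0.71 (SE 0.04, limma adjusted p = 2.72e-08). Low values were whole multiples of what 1 read is worth in a library, which gave back whole reads for 8 members (all but Notch2 and Rbpj) within 0.05 of a whole number, as the smallest whole numbers that fit. For Notch3 these were 39, 56 and 83 reads in control day 7 against 298, 331 and 336 in ND1 day 7, a rate 4.27-fold higher (95% exact interval 3.64 to 5.04, counting error only). Control day 7 was itself 4.11-fold above control day 2 in its mean. The mural and fibroblast marker sum was also higher in control day 7 than in control day 2. That sum overlapped between control day 7 and ND1 day 7 and was highest in neurons, whereas Notch3 was highest in ND1 day 7. The part of such cells was not tested.

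Summed over the 3 receptors, the level was 21.8 ± 0.654 FPKM in control day 2 (SD, n = 3, as for the other sums), 20.4 ± 1.17 in ND1 day 2, 27.5 ± 3.32 in control day 7, 4.18 ± 0.177 in ND1 day 7 and 1.03 ± 0.114 in neurons. Notch2 made up 74.8% of that sum in control day 7 and 53.0% in ND1 day 7. In neurons Notch3 was the largest, at 43.8%.

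**Figure D1:**
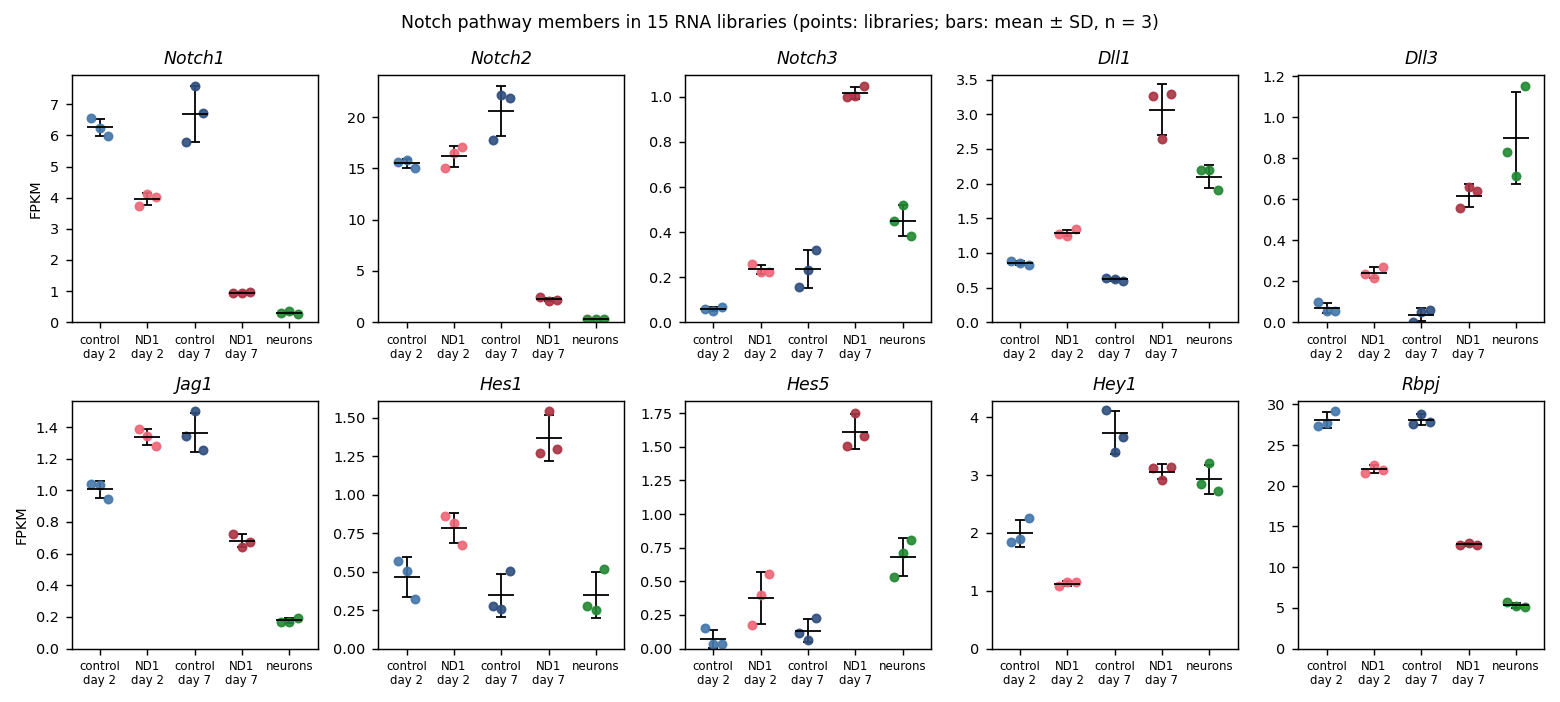
FPKM (linear axis from 0, a separate scale in each panel) of the 10 members in the 15 RNA libraries, as points for libraries and horizontal lines with whiskers for the mean ± SD of 3. Notch1, Notch2 and Rbpj step down from control through ND1 day 7 to neurons, Notch3, Dll1, Hes1 and Hes5 are highest in ND1 day 7, and Hey1 is lowest in ND1 day 2.

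Among the ligands, Dll1 rose in ND1 cells, Dll3 was higher at a very low level, and Jag1 was lower. Dll1, the Delta-like ligand that differentiating neurons present to their neighbours, was at 0.879, 0.861 and 0.820 FPKM in control day 2, 1.27, 1.25 and 1.34 in ND1 day 2, 0.636, 0.627 and 0.597 in control day 7, 3.26, 2.65 and 3.30 in ND1 day 7 and 2.20, 2.19 and 1.91 in neurons. All 5 groups were separate, with ND1 day 7 the highest. Its difference at day 2 was 0.30 (SE 0.06, limma adjusted p = 5.61e-04), and at day 7 it rose by 1.32 (SE 0.06, limma adjusted p = 3.24e-11), a mean 4.95-fold above control. The day 7 call was lost with quantile normalization, at 0.84, and the day 2 difference then turned to -0.28.

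Dll3, a divergent Delta-like protein that acts inside the cell and is a marker of early neuronal commitment, was at 0.0986, 0.0532 and 0.0555 FPKM in control day 2, 0.235, 0.217 and 0.270 in ND1 day 2, 0, 0.0491 and 0.0614 in control day 7, 0.556, 0.658 and 0.642 in ND1 day 7 and 0.831, 0.716 and 1.15 in neurons. The 2 control groups overlapped at a handful of reads. The ND1 day 2, ND1 day 7 and neuron groups did not overlap with any other. The recovered reads in control day 7 were 0, 3 and 4, against 42, 55 and 52 in ND1 day 7, a rate 16.8-fold higher (95% exact interval 7.94 to 42.4, counting error only). Only 1 library reached 1 FPKM, so Dll3 was not tested; with no filter its day 7 difference was 0.64 (SE 0.07, limma adjusted p = 3.23e-06).

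Jag1, a ligand of the Serrate type found in many cell types, was at 1.04, 1.03 and 0.945 FPKM in control day 2, 1.39, 1.34 and 1.28 in ND1 day 2, 1.345, 1.499 and 1.252 in control day 7, 0.726, 0.643 and 0.676 in ND1 day 7 and 0.168, 0.171 and 0.193 in neurons. It was thus higher than control in every ND1 library at day 2 and lower in every one at day 7. The differences were 0.22 (SE 0.04, limma adjusted p = 6.02e-04) and -0.49 (SE 0.04, limma adjusted p = 8.71e-08), neither of the size needed for a call. With quantile normalization the day 2 value turned to -0.35 and the day 7 value was called, at -1.03.

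Dll1, Dll3 and Jag1 summed to 2.02 ± 0.137 FPKM in control day 7 (SD, n = 3) and to 4.37 ± 0.366 in ND1 day 7. Jag1 was the largest of the 3 in every microglial group up to that point and Dll1 in ND1 day 7 and in neurons, with 70.2% and 66.1% of the sum. Adding Jag2 and Dll4, the remaining ligands that activate receptors, gave 2.23 ± 0.0871 FPKM in control day 7, 9.83 ± 0.335 in ND1 day 7 and 7.90 ± 0.388 in neurons, with Jag2 at 53.6% of the ND1 day 7 sum. Per length, transcripts of the 3 member receptors therefore stood at 27.5 FPKM against 2.23 FPKM of these ligands in control day 7, and at 4.18 against 9.83 in ND1 day 7.

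The effectors did not move as a group. Hes5, a repressor and the Notch target most tied to neural progenitors, was at 0.151, 0.0325 and 0.0339 FPKM in control day 2, 0.172, 0.398 and 0.553 in ND1 day 2, 0.1163, 0.06005 and 0.2252 in control day 7, 1.504, 1.755 and 1.583 in ND1 day 7 and 0.531, 0.712 and 0.804 in neurons. ND1 day 7 stood above all other groups, and each group below it overlapped with the next in the order. The recovered reads were 4, 2 and 8 in control day 7 and 62, 80 and 70 in ND1 day 7, a rate 11.9-fold higher (95% exact interval 6.96 to 22.2, counting error only). Hes5 rose by 1.21 at day 7 (SE 0.10, limma adjusted p = 2.15e-08). Its call was lost with quantile normalization, at 0.71.

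Hes1, the more widely expressed repressor of the family, was at 0.568, 0.501 and 0.320 FPKM in control day 2, 0.861, 0.813 and 0.674 in ND1 day 2, 0.274, 0.257 and 0.507 in control day 7, 1.27, 1.54 and 1.30 in ND1 day 7 and 0.277, 0.248 and 0.517 in neurons. The 3 groups without ND1 overlapped with each other, and both ND1 groups lay above them. The day 7 difference was 0.82 (SE 0.09, limma adjusted p = 1.21e-06), short of a call, and the read rate was 3.94-fold higher (95% exact interval 2.82 to 5.63, counting error only). With a pseudocount of 0.1 in place of 1 the day 7 difference was 1.76 and was called, and with quantile normalization it was 0.23.

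Hey1, a repressor related to the HES proteins, was at 1.83, 1.89 and 2.26 FPKM in control day 2, 1.07, 1.14 and 1.15 in ND1 day 2, 4.13, 3.40 and 3.65 in control day 7, 3.12, 2.92 and 3.14 in ND1 day 7 and 2.85, 3.21 and 2.73 in neurons. It was lower in ND1 than in control at both days and higher at day 7 than at day 2 in both arms, and ND1 day 7 overlapped with neurons. The ND1 differences were -0.49 at day 2 (SE 0.07, limma adjusted p = 2.58e-05) and -0.22 at day 7 (SE 0.07, limma adjusted p = 0.00874), and that between the control days was 0.66 (SE 0.07, limma adjusted p = 1.58e-06). None reached the size needed for a call. With median-ratio scaling the day 7 difference was -0.15 with a limma adjusted p = 0.0512.

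Rbpj, which binds the target genes of the pathway and represses them in the absence of a cut receptor, was the most abundant member in every group. It was at 27.4, 27.7 and 29.2 FPKM in control day 2, 21.6, 22.5 and 22.0 in ND1 day 2, 27.6, 28.9 and 27.9 in control day 7, 12.7, 13.0 and 12.8 in ND1 day 7 and 5.68, 5.28 and 5.05 in neurons. The control days overlapped and the other groups were separate. The day 2 difference was -0.34 (SE 0.04, limma adjusted p = 6.17e-06). At day 7 Rbpj fell by 1.08 (SE 0.04, limma adjusted p = 3.45e-12), a mean 2.19-fold below control, close to the size needed for a call: it was -0.96 with quantile normalization and -0.99 with median-ratio scaling, and was then not called.

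At day 2, no member was called among the 8 tested, beside 9.09% of 13602 tested genes called higher and 0.618% lower. At an adjusted p under 0.05 alone, 4 members were higher (Dll1, Jag1, Hes1 and Hes5) and 3 lower (Notch1, Hey1 and Rbpj), beside 31.6% and 36.3% of all tested genes. Those 4 higher values all turned negative with quantile normalization (-0.28, -0.35, -0.35 and -0.04). Hes1 had a limma adjusted p = 0.0746 without control day 2 replicate 3 and 0.0543 without ND1 day 2 replicate 1. With quantile normalization the whole-table day 2 counts were 817 higher and 159 lower, in place of 1237 and 84. At day 7, by an adjusted p under 0.05 alone, 3 were higher (Dll1, Hes1 and Hes5) and 5 lower, beside 46.5% and 44.2% of tested genes. With the size of 1 as well, 2 of the 8 were called higher and 3 lower, beside 25.7% and 24.5% of all tested genes, and with quantile normalization none higher and 3 lower (Notch1, Notch2 and Jag1). The day 7 counts are close to what those shares of all genes give over 8 genes. Hes1 and Hes5 passed the filter only through ND1 day 7 and Dll1 only through ND1 and neuron libraries, so being tested was tied to being high there. The median log2 difference of the 8 was 0.14 at day 2 and -0.35 at day 7, beside -0.04 and 0.04 over all tested genes. Between the control days no member was called, beside 3.9% higher and 3.79% lower over all tested genes, and 4 passed an adjusted p under 0.05 alone, beside 65.8% of them. Their values were 0.66 for Hey1, 0.38 for Notch2, 0.24 for Jag1 and -0.19 for Dll1.

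**Figure D2:**
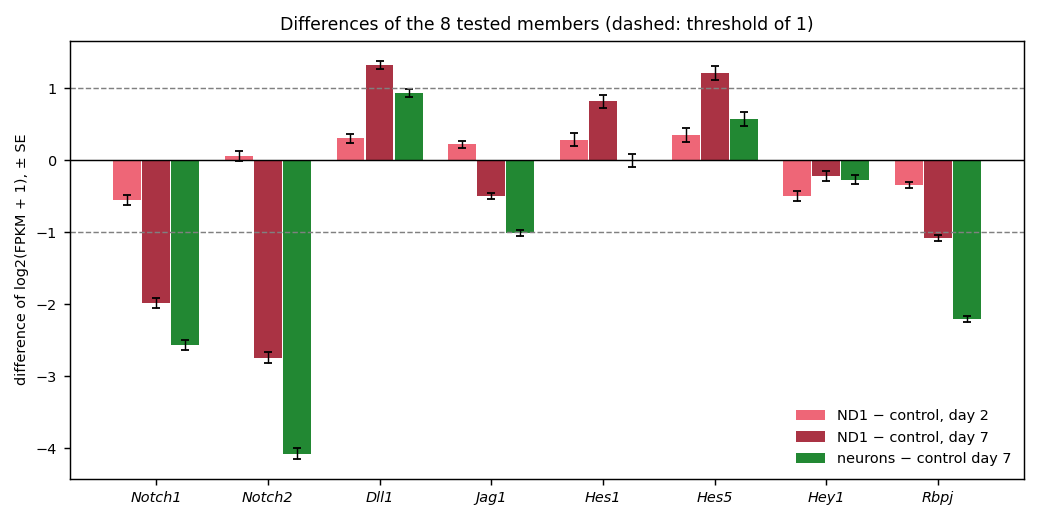
Log2 differences (bars, linear axis of log2(FPKM + 1) with 0 marked, whiskers ± SE from limma) of the 8 tested members for ND1 against control at day 2, at day 7, and neurons against control day 7. At day 7 Notch1, Notch2 and Rbpj lie below the dashed line at -1 and Dll1 and Hes5 above that at 1, while no day 2 bar reaches either line.

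The difference between the ND1 effects at the 2 days was tested in the same fit. Notch2 (-2.80, SE 0.10, limma adjusted p = 1.14e-11) and Notch1 (-1.43, SE 0.10, limma adjusted p = 7.23e-09) were called lower and Dll1 (1.02, SE 0.09, limma adjusted p = 5.77e-08) higher, beside 20.8% of tested genes called lower and 20.5% higher. By an adjusted p under 0.05 alone all 8 members differed between the days, beside 85.4% of tested genes. The median over all tested genes was 0.11 in this comparison and 0.115 from ND1 day 2 to day 7. The Dll1 call was lost without ND1 day 7 replicate 1, at 0.99, and without ND1 day 7 replicate 3, at 0.98. Within ND1 cells, Notch2 fell by 2.42 and Notch1 by 1.35 from day 2 to day 7 and no member was called higher, beside 21.1% of tested genes called lower and 22.6% higher. Dll1, Hes5 and Hey1 were at 0.83, 0.94 and 0.94 in that comparison. Without ND1 day 2 replicate 3, Hes5 was at 1.03 and was called.

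The day 2 values were also set against the day 7 values of the same cells. Over 670 genes high in neurons and in ND1 day 7, the part of the rise from control day 2 to ND1 day 7 already seen at day 2 had a median of 17.1% (5th to 95th percentile 14.97% to 18.90%). Notch3 stood at 18.4%, Dll1 and Hes5 at 19.6%, Dll3 at 31.2% and Hes1 at 35.2%, the last 4 above that range, although at 7 reads over the 3 control day 2 libraries for Hes5 and 12 for Dll3. The 670 genes were chosen at higher levels than these members have, so counting error spreads the members more widely. The ND1 day 2 read rate over control day 2 was 1.67-fold for Hes1 (95% exact interval 1.18 to 2.40, counting error only). For Dll1 it was 1.51-fold (1.28 to 1.78). Whether these members truly lie outside that range was not tested. For all members the ND1 day 2 mean was then divided by a weighted sum, with 17.1% of ND1 day 7 and the remainder from control day 2. Over the 10747 tested genes with at least 1 FPKM in control day 2, this ratio had a median of 91.8% (5th to 95th percentile 70.5% to 122.2%). Hey1 was at 51.5%, and 1.08% of those genes were lower. Notch1 was at 73.9% and Rbpj at 86.4%. Notch2 was at 122.5%, with 4.90% of genes higher, and Jag1 at 140.6%, with 2.65% higher. Hey1 at day 2 was thus below both of the groups from which its sum was made, and Jag1 above both. These ratios are descriptions, and no test was made of them.

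**Figure D3:**
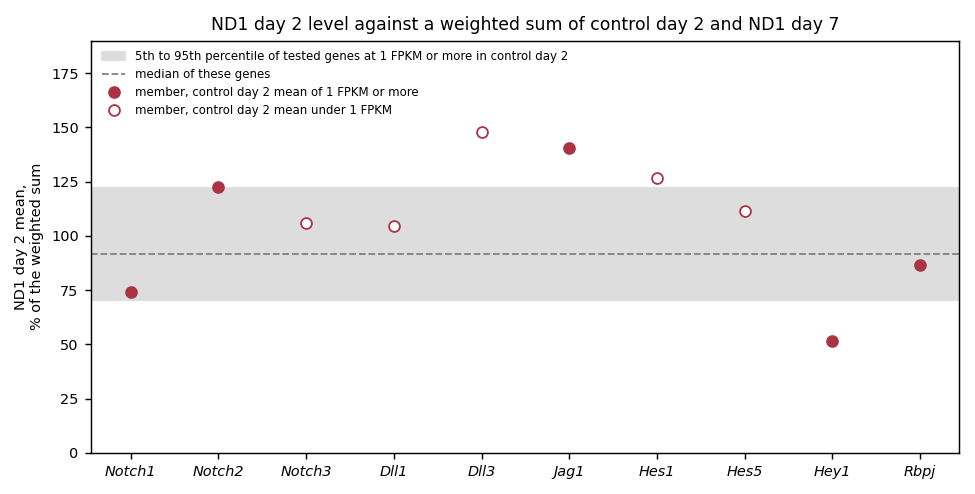
ND1 day 2 mean of each member as a percent of a weighted sum of the control day 2 and ND1 day 7 means (linear axis from 0). The grey band is the 5th to 95th percentile of 10747 genes and the dashed line their median of 91.8%; filled points are members with at least 1 FPKM in control day 2. Hey1 lies below the band at 51.5%, Jag1 at 140.6% and Notch2 at 122.5% lie at or above its upper edge, and so do the weakly expressed Dll3 at 147.7% and Hes1 at 126.7% (open points).

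Against cultured neurons, ND1 day 7 cells still had more of the receptors and of Rbpj. Notch2 was higher by 1.33 (SE 0.07, limma adjusted p = 1.32e-09) and Rbpj by 1.13 (SE 0.04, limma adjusted p = 1.45e-11), the only 2 of 8 members called, beside 7.29% of tested genes called higher and 6.24% lower. The means were 7.99-fold and 2.40-fold those of neurons. Notch1 (0.58), Hes1 (0.82), Hes5 (0.64), Jag1 (0.51) and Dll1 (0.39) were higher at an adjusted p under 0.05 but under the size of 1, where 41.5% of tested genes were higher by that measure. Hey1 was at 0.05 (SE 0.07, limma adjusted p = 0.529), with overlapping libraries. The microglial markers, at 605 to 833 FPKM in ND1 day 7 and 22.9 to 25.6 in neurons, moved in the same direction as Notch2 and Rbpj, and their part in the difference was not tested. Of the control day 7 level above that of neurons, ND1 day 7 kept 10.1% for Notch1, 9.55% for Notch2, 32.8% for Rbpj and 42.5% for Jag1. Over 307 genes high in control microglia and low in neurons the median was 4.81% (middle 50% of genes 4.13% to 5.86%). Those genes were chosen as abundant in control day 7 and nearly absent from neurons, cut-offs that none of these members met. The members and the 307 genes are therefore unlike sets.

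Neurons themselves differed from control day 7 microglia in the same receptors. Notch2 was lower by a log2 difference of -4.07 (SE 0.07, limma adjusted p = 8.32e-16), Notch1 by -2.56, Rbpj by -2.20 and Jag1 by -1.005 (SE 0.04, limma adjusted p = 1.96e-11), 4 of the 8 members called lower and none higher, beside 25.3% and 28.1% of tested genes. The Jag1 call was lost without control day 7 replicate 2, at -0.96, without neuron replicate 1, where it was just short of the size of 1, and with median-ratio scaling, at -0.98. This comparison and ND1 against control at day 7 share their control libraries. Hes1 was at 0.00 (SE 0.09, limma adjusted p = 0.996) between neurons and control, with 0.979 times the read rate (95% exact interval 0.638 to 1.51, counting error only).

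The rest of the pathway was read from 7 lists of 68 genes, of which 58 were tested. At day 7, 18 were called higher and 22 lower, against 25.7% and 24.5% of all tested genes, and the median difference was -0.13 beside 0.04. Of the 8 other receptors and ligands, 4 were tested and rose, of which Jag2, Dlk2 and Mfap2 were under 1 FPKM in every control group and passed the filter only through ND1 and neuron libraries. They were Dner (4.14), a neuronal transmembrane protein reported as a non-canonical ligand, Mfap2 (3.76), a microfibril protein, Dlk2 (3.21), a Delta-like protein, and Jag2 (2.56), a Serrate-type ligand. Jag2 went from 0.0646, 0.0834 and 0.0313 FPKM in control day 7 to 5.28, 5.35 and 5.17 in ND1 day 7, with no overlap. Of the 4 not tested, Dll4, Dlk1 and Mfap5 overlapped between the day 7 groups, and Notch4 was at means of 0.0782 FPKM in control and 0.348 in ND1. Of the 8 other HES and HEY effectors and feedback genes, 3 were tested and rose, and Dtx1 and Nrarp passed the filter only through ND1 and neuron libraries. They were Dtx1 (3.99), a ubiquitin ligase of the pathway, Hes6 (1.77), a HES protein that opposes HES1, and Nrarp (1.66), a target that restrains the receptor complex. Nrarp was at 0.0786, 0.162 and 0.0127 FPKM in control day 7 and at 2.43, 2.53 and 2.28 in ND1 day 7. Among the 5 not tested, Hes7 was at 0.777, 0.676 and 1.15 FPKM in control day 7 and lower in every ND1 day 7 library, at 0.341, 0.247 and 0.223. Hes2 was also lower in every ND1 day 7 library (means of 0.0334 and 0.00297 FPKM), Heyl and Hey2 were higher, and Hes3 was listed at 0 in both groups.

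The machinery that modifies and cuts receptors was mostly lower, where 24.5% of all tested genes were called lower and 25.7% higher. Of 7 gamma-secretase genes, 6 fell, led by the catalytic subunit Psen2 (-3.50), Aph1c (-2.23), Psenen (-1.83) and Ncstn (-1.82), and Aph1b, singled out after its value was seen, rose by 1.60. Psen2 was at 87.0, 94.5 and 86.4 FPKM in control day 7 and 7.93, 6.46 and 6.59 in ND1 day 7. Of 8 glycosyltransferase and processing genes, 5 fell and 1 rose. Lfng (-3.82) and Mfng (-2.51), Fringe enzymes that set which ligand a receptor answers to, were among the 4 largest falls. The others were Adam17 (-2.90), a shedding protease, and Furin (-2.04), which cuts the receptor on its way to the surface. The gene that rose was a further Fringe gene, Rfng, with means of 8.59 FPKM in control day 7 and 25.9 in ND1 day 7. Adam10, another ADAM protease, was lower but not called, with means of 40.0 and 22.7 FPKM. Rfng and Adam10 were singled out after their values were seen. Of 8 coactivators 5 fell and none rose, among them the Mastermind genes Maml2 (-2.21) and Maml1 (-1.37), the acetyltransferase Kat2b (-2.05) and Snw1 (-1.21), which was not called with quantile normalization, at -0.95. Ligand endocytosis and receptor turnover had 5 of 14 higher and 4 lower, near those shares of all genes, from Nedd4 (3.58), Neurl1b (2.74) and Numbl (2.59) to Dtx3l (-3.69). Neurl1b, with means of 0.192 and 0.213 FPKM in control day 2 and day 7, passed the filter only through ND1 and neuron libraries. Corepressors had 4 of 14 higher and 2 lower, also near or under the shares of all genes: Hdac2 (3.00), Tle1 (2.64) and L3mbtl3 (2.33) rose and Tle4 (-1.65) fell. The largest limma adjusted p among the genes named in these lists, Rfng and Adam10 aside, was 5.36e-11, for Aph1b, and no list was tested as a set.

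**Figure D4:**
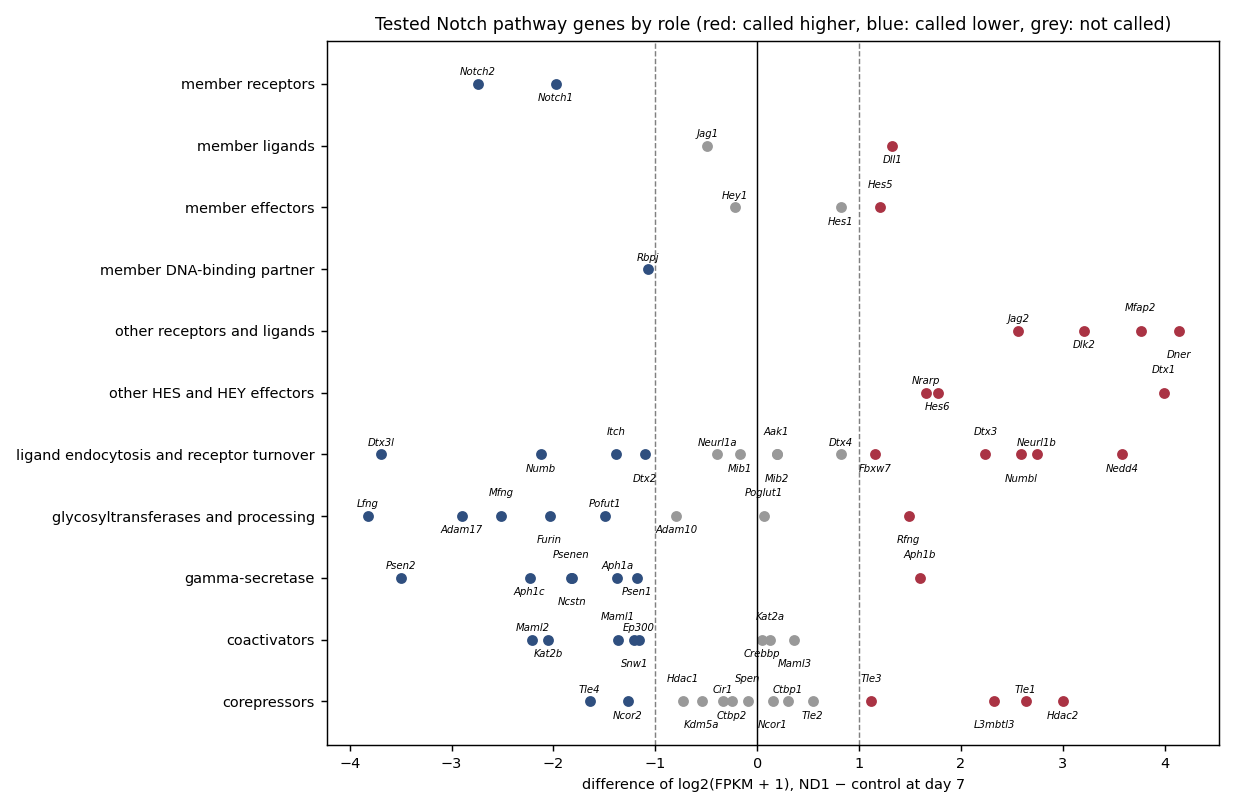
Log2 differences of ND1 against control at day 7 (linear axis of log2(FPKM + 1)) for the 8 tested members and the 58 other tested pathway genes, 1 point a gene, in rows by role (red called higher, blue called lower, grey not called); dashed lines mark -1 and 1. Gamma-secretase and coactivator genes lie mostly to the left; the tested other receptors, ligands and effectors lie to the right, but 4 and 5 genes of those lists did not pass the filter and are not drawn.

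At day 2, 9 of the 58 were called higher and none lower, against 9.09% and 0.618% of all tested genes. The largest were Nedd4 (2.06), Dtx1 (1.96), Mfap2 (1.80) and Dlk2 (1.55). After removal of the 17.1% share of ND1 day 7, Nedd4 was at -0.67, Mfap2 at -0.04, Dtx1 at 0.33 and Dlk2 at 0.38. That share was the median of genes high in neurons and in ND1 day 7 in these same libraries. Its removal therefore lowers such genes toward 0 by construction and is no check on their day 2 calls. In the test of the difference between the days, 16 were called higher and 19 lower, beside 20.5% and 20.8% of all tested genes, the largest being Dtx3l (-3.27), Lfng (-2.90), Adam17 (-2.89) and Mfng (-2.77). Adam17 was at 43.12, 43.97 and 43.19 FPKM in control day 2, 41.60, 43.53 and 43.95 in ND1 day 2 and 6.38, 5.08 and 5.63 in ND1 day 7, so that its day 2 groups overlapped as those of Notch2 did. Against neurons, ND1 day 7 had 5 of the 58 called higher and 4 lower, near the 7.29% and 6.24% of all tested genes, with Dtx3l (1.75), Adam17 (1.60) and Dtx4 (1.33) higher and Neurl1a (-1.35) lower.

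The genes whose pattern over the 15 libraries lay nearest to a member were found by Pearson's r of log2(FPKM + 1) among 9508 or 9509 genes. The libraries form 5 groups, so these values mostly compare 5 levels, and they are given as descriptions. Notch2 lay nearest to Prex1 (r = 0.999), Adap2 and Ehd4, and Notch1 to Zdhhc18 (0.998), Cebpd and Gmip. Rbpj lay nearest to Tlk1 (0.998) and Jag1 to Cd109 (0.994). Dll1 lay nearest to Myt1 (0.992), a zinc-finger gene of neuronal differentiation, and Notch3 to Col18a1 (0.989). Hes5 lay nearest to Nup107 (0.976), Hey1 to Cers5 (0.941) and Hes1 to Ccbe1 (0.940). Myt1 had mean levels of 0.454 FPKM in control day 2, 1.11 in ND1 day 2, 0.216 in control day 7, 4.49 in ND1 day 7 and 2.51 in neurons. That is the order of Dll1, which the choice of Myt1 by its r nearly fixes.

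DNA methylation near the listed starts of the members ran from 0.797% to 20.2% over both bisulfite libraries, where the median of all starts was 20.0%. The values are the mean of the deposited methylated fractions over the CpGs within 1000 bases of the outermost start listed in the promoter table, written as a percent; for Rbpj the annotated gene extends further upstream than that start. There is 1 library a group, so the values have no replicate check, and the files hold no coverage, so their depth is unknown. Rbpj and Jag1 were nearly free of methylation, at 1.02% in control and 0.973% in ND1 for Rbpj and at 0.797% and 1.02% for Jag1. Notch1 was at 6.14% and 7.01% (122 CpGs in ND1), Notch2 at 6.01% and 3.12% (127 and 125), Dll1 at 7.80% and 6.67%, Hes5 at 10.1% and 9.44%, Dll3 at 10.8% and 11.1%, and Notch3 at 14.2% and 20.2% (84 and 87 CpGs). The 2 largest differences, those of Notch2 and Notch3, shrank over the CpGs listed in both libraries, to 3.02% and 3.17% for Notch2 and to 14.6% and 15.8% for Notch3. Over 22574 starts with at least 10 CpGs the median was 20.0% in each library, 38.0% of starts were under 10% in control, and the ND1 minus control difference ran from -3.57 to 4.23 percentage points between the 5th and 95th percentiles.

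For Hes1 and Hey1 the gene with 1000 bases on either side was read in place of the start. Hes1 was at 12.5% and 13.8% and Hey1 at 12.8% and 12.6%, beside a median of 57.3% over 3683 protein-coding genes of at most 5000 bases read in the same way. Over its whole span Rbpj was at 65.9% in control and 61.9% in ND1, with 813 and 928 CpGs listed. The level depended on the window: in control, Notch1 was at 1.46% within 500 bases and 11.96% within 2000, Notch2 at 0.620% and 16.3%, Hes5 at 1.88% and 17.8%, and Dll1 at 12.3% and 5.01%. No order of the members by methylation is read from it. For every outermost listed start compared over CpGs listed in both libraries the difference was under 1.2 percentage points.

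**Figure D5:**
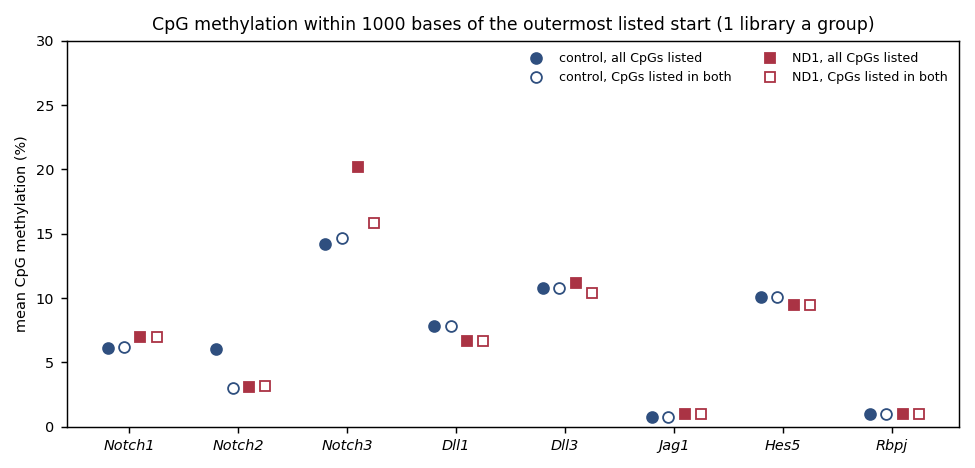
Mean CpG methylation (percent, linear axis from 0) within 1000 bases of the outermost listed start in 1 control (circles) and 1 ND1 library (squares); filled points use all CpGs listed and open points those listed in both. All values lie between 0.797% and 20.2%, and the open points of the 2 libraries lie close together.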

How the data were processed

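RNA was measured in 15 libraries and CpG methylation in 2; the 10 chromatin immunoprecipitation samples were not analysed here. The authors deposited gene-level FPKM, made with TopHat, Bowtie2, Cuffdiff and Cufflinks on mm10 per the submitters' processing notes, with no versions. The bisulfite libraries (post-bisulfite adaptor tagging, per the labels' protocols) were deposited as a methylated fraction per CpG on mm10, without coverage; their aligner and caller: not given in the sources used here. Both the members and the gene lists were chosen with earlier results of these data known.

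Values were taken as log2(FPKM + 1). The 13602 genes that reached 1 FPKM in 3 or more libraries entered a limma 3.58.1 fit (R 4.3.3) of 5 group means, an intensity trend and 10 residual degrees of freedom, and p-values were adjusted by Benjamini-Hochberg over all of them. The fit was tested on simulated data. The FPKM files hold no counts: depth was read from the worth of 1 read, which ran from 0.728 to 1.125 times that of control day 2 replicate 1. Read-rate intervals are exact (Clopper-Pearson, 95%) and cover counting error only. Other pathway genes were named when called, at most the 4 with the largest change in each list at day 7, and the 4 largest over all lists in each of 3 other comparisons; for each member with a group mean of at least 1 FPKM the 3 nearest genes were sought. Alternatives were another pseudocount, other filters, quantile normalization, median-ratio scaling, a fit over the groups compared only, a replicate block, leaving out each library, subtracting from ND1 day 2 its ND1 day 7 share, and other windows and CpG sets. Replicate numbers did not pair the libraries: 2 of 30 same-numbered pairs correlated above 0.1 in their deviations from the group means.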

Additional observations from a re-analysis of the deposited data

Results flagged for a closer look

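The ND1 effect differed between day 7 and day 2 for all 8 tested members, by limma's test of that difference (adjusted p under 0.05), as it did for 85.4% of all tested genes. The difference on the log2 scale was -2.80 for Notch2, -1.43 for Notch1, -0.74 for Rbpj and -0.71 for Jag1, and 1.02 for Dll1, 0.86 for Hes5, 0.53 for Hes1 and 0.28 for Hey1. Notch2, Notch1 and Dll1 passed the size of 1 used for calls. Jag1 was higher in ND1 than in control at day 2 and lower at day 7 in every library.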

How the results depend on the processing

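Among the log2 values of named genes under the alternatives, 1255 kept their direction and their side of the threshold, 20 passed it, 12 no longer did and 16 changed direction. The other filters, the fit over the groups compared only and the replicate block leave the log2 value unchanged by construction. Only the adjusted p could move there, so the number kept overstates how far the values were tried. Quantile normalization turned the day 2 differences of Dll1 to -0.284, Jag1 to -0.348, Hes1 to -0.350 and Hes5 to -0.037, Hes1 between neurons and control day 7 to -0.254 and Hey1 between ND1 day 7 and neurons to -0.076; it left 0 members called higher at day 7. Differences near 0 also turned. Hes1 between neurons and control day 7 was -0.001 with a pseudocount of 0.1 and ran from -0.088 (without neuron replicate 3) to 0.085 with 1 library left out; it was -0.036 and -0.046 without control day 7 replicates 1 and 2. Between the control days, Notch1 ran from -0.004 (without control day 7 replicate 2) to 0.165 and Rbpj from -0.017 (without control day 7 replicate 2) to 0.029; Rbpj was -0.016 and -0.009 without control day 2 replicates 1 and 2. After removal of the ND1 day 7 share, which lowers genes high in ND1 day 7 by construction, Nedd4 was -0.667 and Mfap2 -0.036 at day 2. The cause of these changes was not tested.

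Counts moved under several choices. With a pseudocount of 0.1, genes called at day 2 were 2367 higher and 157 lower, between the control days 1115 higher and 777 lower, and between ND1 day 7 and neurons 1737 higher; members called higher were 1 at day 2 (Hes5), 3 in the difference between the days, 3 from ND1 day 2 to day 7, 2 in neurons and 6 in ND1 day 7 against neurons. Quantile normalization gave 817 genes higher and 159 lower at day 2, median-ratio scaling 45 lower, and removal of the share 98 higher and 36 lower, with 2 members higher in the difference between the days and 3 from ND1 day 2 to day 7. With the main settings, 20.5% of all tested genes were called higher in the difference between the days and 22.6% from ND1 day 2 to day 7. In neurons 28.1% were, and in ND1 day 7 against neurons 7.29%. Shares of all genes at the altered settings are not given here for each comparison, so these member counts are not read as a gain for the members. A filter of 5 FPKM, which leaves out Dll1 and Hes5, gave 0 members higher at day 7 and 0 in the difference. Leaving out 1 library gave 0 to 1 members higher in the difference between the days and 0 to 1 from ND1 day 2 to day 7. With the replicate block the day 7 counts were 3497 genes higher and 3332 lower with 2 members higher and 3 lower, and no named gene's call changed. Methylation at the starts depended on the window: in control, within 500 and 2000 bases, it was 0.783% and 3.90% at Jag1, 1.46% and 11.96% at Notch1, 0.620% and 16.3% at Notch2, 1.88% and 17.8% at Hes5 and 5.18% and 24.6% at Dll3. A few reads limit Hes5 and Dll3 in the control groups, and no depth is known for methylation.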
